A study of Mus musculus with 3 samples.

Results

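Mef2a, Mef2c and Mef2d, which encode MADS-box transcription factors, and Hdac4, Hdac5, Hdac7 and Hdac9, which encode the class IIa histone deacetylases, were examined for FOXF1 binding in the fetal mouse lung. These 7 genes were taken by name from the 21887 protein-coding genes that RefSeq lists on mm10. FOXF1-bound chromatin from the lungs of wild-type C57BL/6 embryos at embryonic day 18.5 had been immunoprecipitated and sequenced. There were 2 biological replicates precipitated with a FOXF1 antibody, each a pool of 3 lungs, and an input of 2% of the chromatin, which carried no antibody and entered only as the control of the peak calls. The authors' lists held 107378 summits in replicate 1 and 61172 in replicate 2 on the nuclear chromosomes used here.

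Shared sites were called where a summit of each replicate lay at most 100 bp apart and each was the other's nearest. A site belonged to a gene when it lay inside the gene, or within 100 kb with an end of that gene as the nearest end of any protein-coding gene. By this rule 76 of the 51013 shared sites belonged to the 7 genes, 26 of them to the Mef2 genes and 50 to the deacetylase genes. Each summit carries a score, the authors' −log10 significance against the input; it depends on read depth, which the sources used here do not give. A score is therefore read by its percentile, the share of the same replicate's summits that score no higher. Whole lung mixes many cell types, so a lower score from fewer cells that are bound and one from weaker binding per cell cannot be told apart. The cell type in which a site was bound was not measured.

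MEF2 proteins bind DNA through a shared MADS and MEF2 domain and drive genes of muscle, bone, nerve and blood vessels. Class IIa deacetylases have little enzymatic activity of their own; they dock on MEF2 and recruit a repressor complex that holds its target genes down. Kinases that phosphorylate the deacetylases create docking sites for 14-3-3 proteins, which keep the deacetylases out of the nucleus and so release MEF2. In the vessel wall, mouse embryos without Mef2c or without Hdac7 are known to have vascular defects. FOXF1 is itself a regulator of lung mesenchyme and capillaries.

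At 4 of the genes a shared site lay within 100 bp of a listed start, and the sequences before these starts are shown to place the starts and motifs beside the sites. RefSeq lists 13 starts for the 7 genes, and each was examined with the 250 bases before it and the 50 bases that begin with it. A shared site lay inside this window at 3 of the 13 starts, those of Mef2a, Hdac7 and Hdac9 shown here, and at 20.5% of the 21263 such windows of all protein-coding genes. By gene this is 3 of 7, against 23.3% of the protein-coding genes with a listed start. At Mef2d the site lay just beyond the window. The lines below hold the 250 bases before the start and the 30 bases that begin with it, 5′ to 3′ along the gene. They are from RefSeq on GRCm38.p6, the assembly of mm10. Capitals mark the forkhead core GTAAACA in Hdac7 and the MEF2 consensus in Mef2a. The sites of Hdac7 and Hdac9 lie within the printed letters, while that of Mef2a lies 20 bp past the end of its line and that of Mef2d 60 bp past. The windows are chr7:67372829-67373108 on the minus strand for Mef2a, chr3:88142122-88142401 on the plus strand for Mef2d, chr15:97831738-97832017 on the minus strand for Hdac7 and chr12:34528860-34529139 on the minus strand for Hdac9.
Mef2a: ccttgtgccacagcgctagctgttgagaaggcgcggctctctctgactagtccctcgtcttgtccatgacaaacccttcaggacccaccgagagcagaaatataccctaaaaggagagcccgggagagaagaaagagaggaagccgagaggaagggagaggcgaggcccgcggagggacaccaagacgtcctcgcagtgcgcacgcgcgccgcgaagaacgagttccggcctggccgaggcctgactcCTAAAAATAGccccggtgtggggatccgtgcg
Mef2d: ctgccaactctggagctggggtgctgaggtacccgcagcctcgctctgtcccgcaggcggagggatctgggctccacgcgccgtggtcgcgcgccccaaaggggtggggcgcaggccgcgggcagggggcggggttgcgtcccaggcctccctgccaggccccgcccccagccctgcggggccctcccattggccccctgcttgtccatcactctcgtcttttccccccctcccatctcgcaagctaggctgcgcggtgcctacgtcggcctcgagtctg
Hdac7: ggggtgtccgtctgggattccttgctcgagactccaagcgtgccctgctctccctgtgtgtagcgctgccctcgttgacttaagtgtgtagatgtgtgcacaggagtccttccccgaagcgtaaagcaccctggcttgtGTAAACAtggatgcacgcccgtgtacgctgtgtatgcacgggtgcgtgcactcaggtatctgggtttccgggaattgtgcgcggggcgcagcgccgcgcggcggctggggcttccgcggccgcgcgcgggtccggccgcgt
Hdac9: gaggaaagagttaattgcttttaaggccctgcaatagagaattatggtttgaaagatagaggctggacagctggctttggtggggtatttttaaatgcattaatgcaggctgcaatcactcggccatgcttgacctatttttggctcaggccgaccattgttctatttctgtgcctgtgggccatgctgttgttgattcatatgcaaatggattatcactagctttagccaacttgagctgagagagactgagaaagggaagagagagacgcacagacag

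The letters GTAAACA, searched on both strands, occurred in 1 of the 13 windows, against 3.01% of the windows of all protein-coding genes. That window was the Hdac7 one, where the motif at 97831872 to 97831878 was centred 18 bp from the shared site, which scored 124 in replicate 1 and 81.6 in replicate 2. With 4 forms allowed, A or G at base 1 and C or T at base 6, the count stayed at 1 of 13, against 12.8% of all windows. Among all windows with a shared site in them, 3.79% held GTAAACA, against 2.8% of windows without one. The MEF2 consensus occurred in 2 of the 13 windows, against 2.74% of all. In Mef2a it lay across the start at 67372851 to 67372860, centred 46 bp from the shared site; in Hdac5 it lay at 102230183 to 102230192 on chromosome 11, just before the start. Forms with T at base 6 can overlap the MEF2 consensus, but no such overlap occurred in these windows. A match describes letters in the window and does not show that a factor was bound to them. The motifs were chosen after the sequences were seen, so the counts are descriptions of these windows only.

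All 7 genes had at least 1 shared site, as did 60.7% of all protein-coding genes. Hdac9 had 32 shared sites, Mef2c 14, Mef2a 11, Hdac7 9, Hdac4 5, Hdac5 4 and Mef2d 1. The median of the 7 genes was 9, against 1 over all protein-coding genes, but the genes also differed in length, with medians of 145 kb and 17.2 kb. Each gene was therefore also set beside the 500 protein-coding genes nearest to it in length. Hdac7 exceeded 96% of these, Hdac9 93.2%, Mef2c 86.4%, Hdac5 82.2% and Mef2a 81.6%. For Hdac9, of 869516 bp, the 500 genes ran from 314245 to 1375012 bp, so its match in length was loose. With pairing at 50 bp Hdac7 had 4 sites in place of 9, and the standing given here is for 100 bp. Hdac4 exceeded 42.2% of genes of its length, whose median was 6 sites, and so lay below the middle. Mef2d had the median number of its group, 1 site, and exceeded 28.0% of it. At least 32 shared sites, the number at Hdac9, were found at 0.238% of protein-coding genes, and at least 9, the number at Hdac7, at 5.81%.

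**Figure D1:**
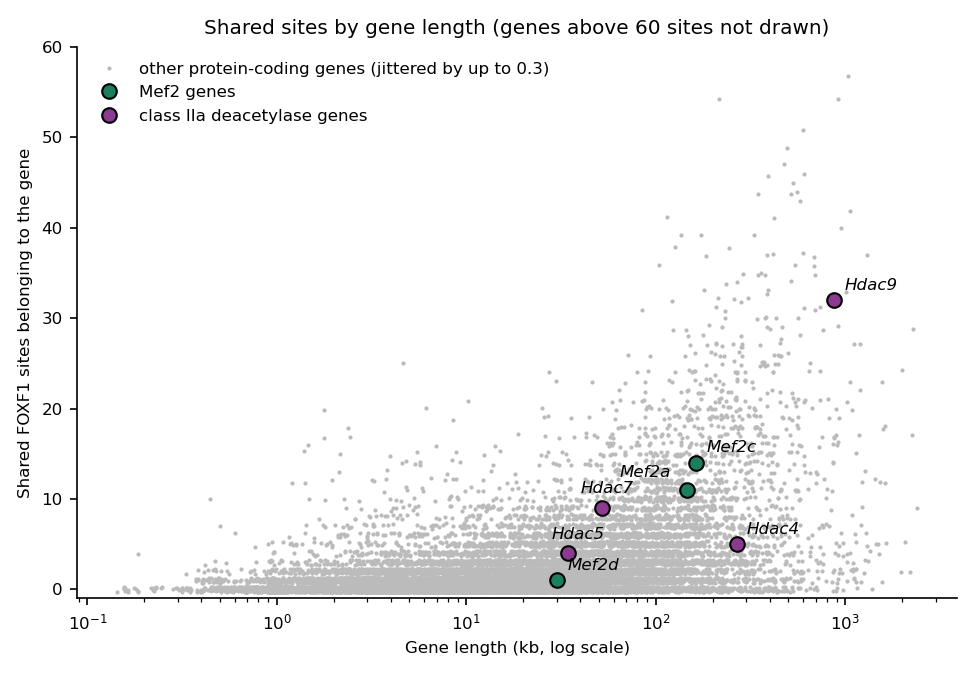
Shared FOXF1 sites belonging to each protein-coding gene (vertical axis, number of sites) against gene length (horizontal axis, kb, log scale), with the 7 genes as large points and all others as small grey points moved at random by up to 0.3 sites so that they can be seen. Hdac7 with 9 sites and Hdac9 with 32 lie high among the 500 genes nearest to each in length, while Hdac4 with 5 and Mef2d with 1 do not. For Hdac9 these 500 genes span a wide range of lengths. Not drawn are 3 genes with more than 60 sites.

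The order of the genes was similar in each replicate taken alone. In replicate 1, Hdac9 had 57 summits, Mef2c 42, Mef2a 27, Hdac4 18, Hdac7 14, Hdac5 7 and Mef2d 2. In replicate 2, Hdac9 had 34, Mef2c 19, Mef2a 14, Hdac7 9, Hdac4 6, and Hdac5 and Mef2d 5 each. The first 3 places were the same in both lists. Hdac4 and Hdac7 changed places, and Hdac5 and Mef2d were equal in replicate 2, so these neighbours were not separated beyond the difference between replicates. Mef2d was the gene with more summits in replicate 2, while the other 6 had more in replicate 1, the longer list.

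**Figure D2:**
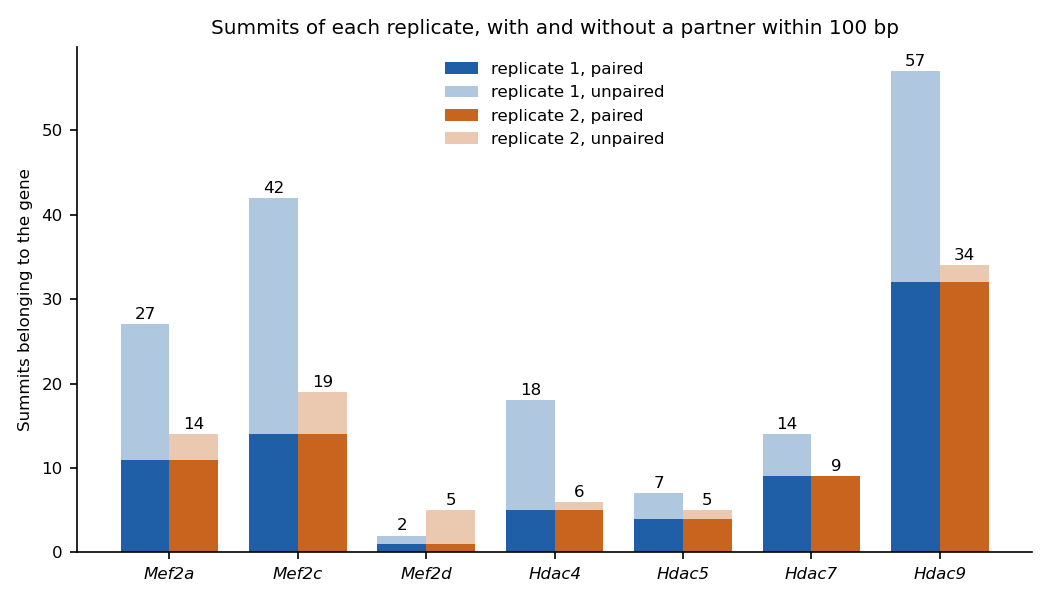
Number of summits belonging to each gene (vertical axis) in replicate 1 (blue) and replicate 2 (orange); the dark part of a bar has a partner within 100 bp in the other replicate and the pale part has none, and the totals stand above the bars. Replicate 1 bars are taller for every gene except Mef2d, which has 2 summits in replicate 1 and 5 in replicate 2.

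Of the summits of the 7 genes, 45.5% of those in replicate 1 and 82.6% of those in replicate 2 were paired, close to the 47.5% and 83.4% of the whole lists. The 91 unpaired summits of replicate 1 were mostly low, with a median score of 8.94 against 43.7 for the paired ones. They ranged from 2.76 to 182, and the highest, in Hdac9, lay 105 bp from a replicate 2 summit. For 72 of the 91 no replicate 2 summit lay within 1 kb. In replicate 2 the 16 unpaired summits were not low. Their median score was 21.8, against 17.3 for the paired ones, and they ranged from 4.98 to 84.6. Over the whole replicate 2 list, unpaired summits had a median of 10.8.

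Of the 76 sites, 70 lay inside the genes, 5 lay before the 5′ end of Mef2a and 1 before that of Hdac4. Over their joint length the 7 genes held 4.48 sites per 100 kb, against 2.89 over all protein-coding genes. Within the genes the density was 17.4 per 100 kb in Hdac7, 11.6 in Hdac5, 8.59 in Mef2c, 4.13 in Mef2a, 3.68 in Hdac9, 3.32 in Mef2d and 1.5 in Hdac4. Hdac9 thus led in number and Hdac7 in density. The lead of Hdac7 depended on the pairing distance: with pairing at 50 bp it had 7.72 sites per 100 kb, below 8.71 in Hdac5 and 7.97 in Mef2c. Exons, introns and untranslated regions could not be told apart with the gene table used here.

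As a group, the sites had scores close to those of all shared sites. Their median score was 43.7 in replicate 1 and 17.3 in replicate 2, against 44.1 and 19.1 over all shared sites. In the top 10% of both lists lay 14 of the 76 sites, or 18.4%, against 10.6% of all shared sites. These 14 sites belonged to 5 of the 7 genes, namely 5 to Hdac9, 3 to Mef2c, 3 to Hdac7, 2 to Mef2a and 1 to Mef2d, and 13.4% of protein-coding genes had such a site. Hdac4 and Hdac5 had none. Pairing restricted to the top 10000 summits of either list left a shared site at the same 5 genes, against 16.7% of protein-coding genes. The 13.4% and 16.7% are shares over genes of all lengths, and the 7 genes had a longer median length.

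**Figure D3:**
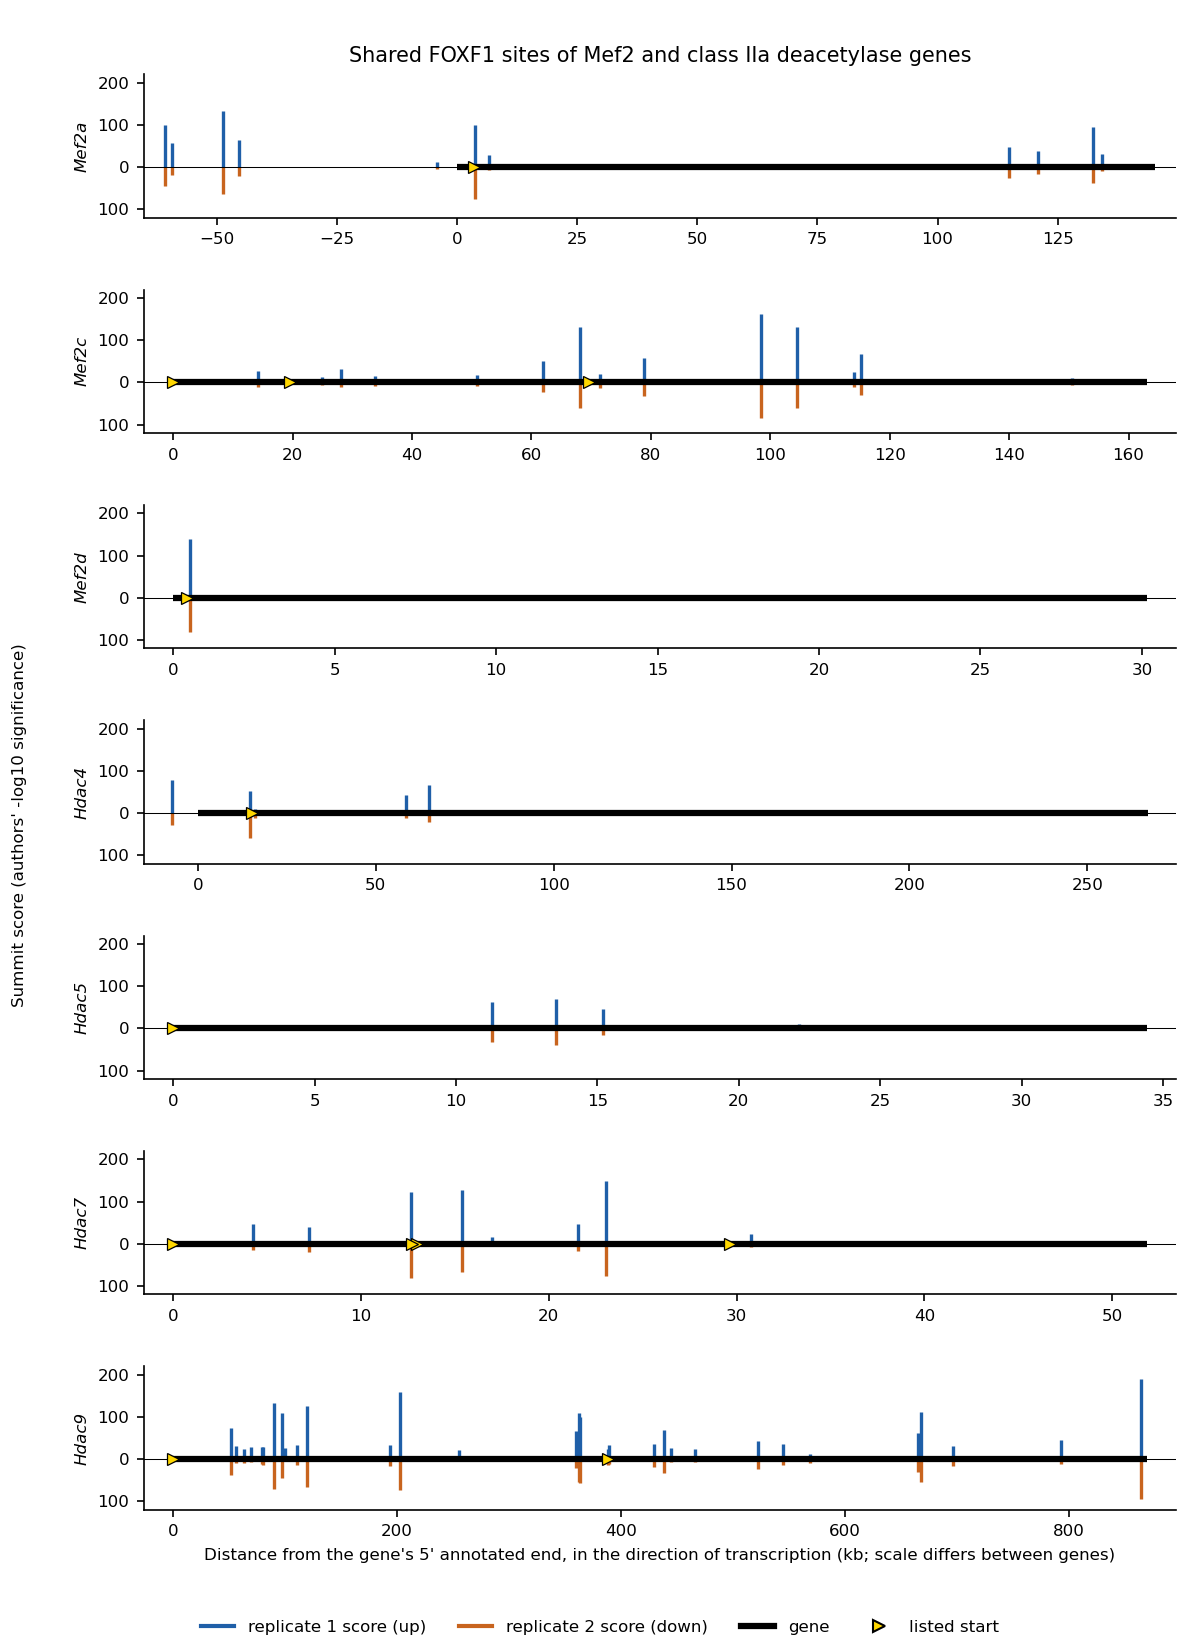
Shared FOXF1 sites along each gene, drawn in the direction of transcription from its 5′ annotated end (horizontal axis, kb, with a scale of its own for each gene), with the replicate 1 score upwards and the replicate 2 score downwards (authors' −log10 significance), the gene as a black bar and the starts RefSeq lists as yellow arrowheads. Mef2d has 1 high site at its start, the high sites of Mef2c and Hdac7 lie inside the gene, and Hdac9 has sites along its length with the highest near its 3′ end.

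Mef2c, the family member known for heart, vessel and brain development, spans 83504017 to 83667079 on chromosome 13. All 14 of its shared sites lay inside the gene. The highest, at 83602381, had scores of 162 in replicate 1 and 84.9 in replicate 2, at the 98.1 and 97.1 percentiles. Next came 83572221, with 132 and 60.3, and 83608442, with 131 and 61.4. The other 11 ranged from 10.6 to 67.2 in replicate 1 and from 5.48 to 33.2 in replicate 2, so 3 sites stood apart from the rest in both replicates. The long noncoding RNA gene Gm52043 overlaps 4 of the 14 sites, including the highest, and Gm52044 overlaps 1.

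The flanks of Mef2c were without shared sites. Within 300 kb outside either end there was none, and no replicate 2 summit, although 21 replicate 1 summits lay there. The nearest shared sites outside the gene were 302 kb to the left and 555 kb to the right. The gene stands in a region poor in protein-coding genes, the nearest being Tmem161b at 555 kb and Cetn3 at 1707 kb. In the same 300 kb on either side the other 6 genes had between 4 shared sites, at Hdac4, and 30, at Mef2a.

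No shared site lay within 1 kb of the 3 starts listed for Mef2c. The nearest was the high site at 83572221, 1386 bp before the start at 83573607. Around the start at 83523656 both replicates had a summit just under the top 10% of its list, but not in the same place. The replicate 1 summit lay 2071 bp after that start with 80.3, and the replicate 2 summit 1014 bp after it with 53.3.

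Mef2a, which is known for its part in heart muscle, spans 67231163 to 67376456 on chromosome 7, and most of its sites lay at its start, before it and near its 3′ end. At its start, a site 49 bp after the first base had scores of 98.8 and 76.1 in replicates 1 and 2, at the 92.8 and 95.8 percentiles. Before the gene, 4 sites lay 45352 to 60847 bp from its 5′ end, and the highest of them, at 67425231, was also the highest of Mef2a, with 132 and 64.5. The last 2 of these lie in the long noncoding RNA gene Gm33926. Near the 3′ end, 4 sites lay between 67242164 and 67261551, led by 67244009 with 95.6 and 36.6. The remaining sites were low and lay on either side of the start, at 67369776 with 27.9 and 7.78 and at 67380574 with 12.7 and 5.6. Inside the gene, a stretch of 108225 bp held no shared site.

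Mef2d, a widely expressed family member, spans 88141941 to 88172091 on chromosome 3 and had a single shared site. It lay at 88142461, 89 bp after the listed start, and was the third highest of the 76 sites by mean percentile. Its scores were 140 in replicate 1 and 80.9 in replicate 2, at the 97.0 and 96.6 percentiles, with summits 3 bp apart. Replicate 2 had 4 further summits assigned to the gene without a partner. The highest, 3532 bp before the start with a score of 78.3, had its nearest replicate 1 summit 3623 bp away.

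Hdac7, the deacetylase needed for the integrity of embryonic vessels in the mouse, spans 97792661 to 97844502 on chromosome 15. All 9 of its sites lay inside it, and 6 of them lay within 10409 bp, the largest number in any run of sites with gaps of at most 5 kb in these genes. The run depended on the pairing distance, as summits lay 81 bp apart at 97822960, 96 bp at 97825236 and 59 bp at 97829100. These sites were lost with pairing at 50 bp. The run holds 3 sites in the top 10% of both lists. The site at 97821448 had scores of 149 and 76.5 in replicates 1 and 2, that at 97829100 had 127 and 67.8, and that at 97831857 had 124 and 81.6. The last is the site beside GTAAACA in the printed sequence, and it lay 90 bp before the start at 97831767, 1 of 4 listed for Hdac7. That start lies inside the gene. The start at the 5′ end, at 97844502, had its nearest shared site 4241 bp away. The remaining 6 sites were lower, from 5.39 to 47.9 in replicate 1 and from 3.33 to 18.4 in replicate 2. The long noncoding RNA gene Gm33636 overlaps 3 of the 9 sites, and 1 low site, at 97813762, also belonged to the overlapping gene Slc48a1.

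Hdac9, which also gives rise to a short protein without the catalytic domain, spans 34047580 to 34917095 on chromosome 12. It had 32 sites, all inside, and 20 of them lay more than 100 kb from either end. The highest of all 76 sites lay at 34052382, 4802 bp inside its 3′ end, and scored 190 in replicate 1 and 95.0 in replicate 2, at the 99.0 and 98.1 percentiles. Next in Hdac9 came 34714753, with 159 and 72.9, 34827110, with 134 and 70.8, and 34797608, with 126 and 66.5. The gene next to this 3′ end is Twist1, 87.7 kb away, and stretches of Hdac9 are known in the mouse embryo as enhancers of Twist1.

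Inside Hdac9, 3 sites within 3844 bp, from 34553368 to 34557212, reached 109 in replicate 1 and 57.3 in replicate 2. The start at the 5′ end of the gene, at 34917095, had its nearest shared site 51534 bp away. The second listed start, at 34528889, had sites 64 bp before it and 649 bp after it. Both were in the lower part of the Hdac9 sites, with 23.9 and 14.9 for the first and 33.6 and 11.9 for the second in replicates 1 and 2. The largest stretch between neighbouring shared sites was 104329 bp, from 34557212 to 34661541. It held a pair of high summits 105 bp apart, which missed the pairing distance of 100 bp; with pairing up to 200 bp the largest stretch was 96267 bp.

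Hdac5, a repressor of blood vessel sprouting in cultured human endothelium, spans 102195747 to 102230172 on chromosome 11 and had 4 sites, all inside. Of these, 3 lay within 3945 bp in the middle of the gene, at 102214960 with scores of 45.0 and 14.9, at 102216626 with 70.7 and 39.2, and at 102218905 with 63.5 and 33.1 in replicates 1 and 2. The other was low, with 11.6 and 3.76. Its start had no shared site by the rule used, the nearest being 11267 bp away. Each replicate did have a summit there, on either side of the start and 142 bp apart. In replicate 1 it lay 56 bp before the start with a score of 40.3, and in replicate 2 it lay 86 bp after the start with 38.2.

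Hdac4, which restrains cartilage maturation, spans 91928779 to 92195702 on chromosome 1 and had 5 sites. Its density of shared sites inside the gene was the lowest of the 7 genes. In replicate 1 alone Mef2d was lower, with 3.32 summits per 100 kb inside the gene against 4.87 in Hdac4. A pair of sites flanked its listed start, 649 bp before it with scores of 51.3 and 58.8 in replicates 1 and 2, and 656 bp after it with 8.94 and 11.2. These 2 were the ones among the 76 with a higher score in replicate 2 than in replicate 1. Within the gene, 92130601 had 67.7 and 20.5 and 92137298 had 42.3 and 11.3. The site before the gene, at 92202828, had 79.2 and 28.6. The sites of Hdac4 thus did not have the same order in the 2 replicates: the highest score was at 92202828 in replicate 1 and beside the start in replicate 2.

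The pairing distance decided a few sites. The widest pair kept was at 97825236 in Hdac7, with summits 96 bp apart and scores of 5.39 and 3.33. The narrowest pair left out was in Hdac9, with summits at 34581952 in replicate 1 and 34581847 in replicate 2, 105 bp apart. It was high in both lists, with 182 in replicate 1 and 84.6 in replicate 2, at the 98.8 and 97.0 percentiles, and would be the second highest of Hdac9. Pairing up to 200 bp added 4 sites, this one, the Hdac5 start, another in Hdac9 and 1 in Hdac4. In the 76 sites the summits lay a median of 15 bp apart, against 13 bp over all shared sites, and in 31 of them at most 10 bp, against 43.9% of all shared sites.

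Within 1 kb of a listed start of their own gene lay 7 of the 76 sites, or 9.21%, while 14.7% of all shared sites lay within 1 kb of a listed start of a protein-coding gene. These 7 sites belonged to 5 genes, namely Hdac4, Hdac9, Mef2a, Mef2d and Hdac7, and 43.1% of the 17492 protein-coding genes with a listed start had such a site. Mef2c and Hdac5 had none. At 3 of the 5 genes, Mef2d, Mef2a and Hdac7, the site near a listed start was in the top 10% of both lists. At Hdac4 it reached the 78.7 percentile in replicate 1 and the 91.2 percentile in replicate 2. At Hdac9 the sites near a start reached at most the 66.5 percentile in replicate 1 and the 43.3 percentile in replicate 2.

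The scores of both replicates followed each other across the 76 sites, with Spearman's rho of 0.945, against 0.883 over all shared sites. Sites of the same replicate share a library, its depth and the input, so these are descriptions across sites. Sites at starts stood relatively higher in replicate 2. When the 51013 shared sites were ranked within each replicate, 6 of the 7 sites near a start ranked higher in replicate 2, against 32 of the 69 other sites of these genes. The same held over all shared sites, where 91.1% of those within 1 kb of a start and 36.7% of the others ranked higher in replicate 2. The shift at starts was thus found over all shared sites as well, and its source was not tested.

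**Figure D4:**
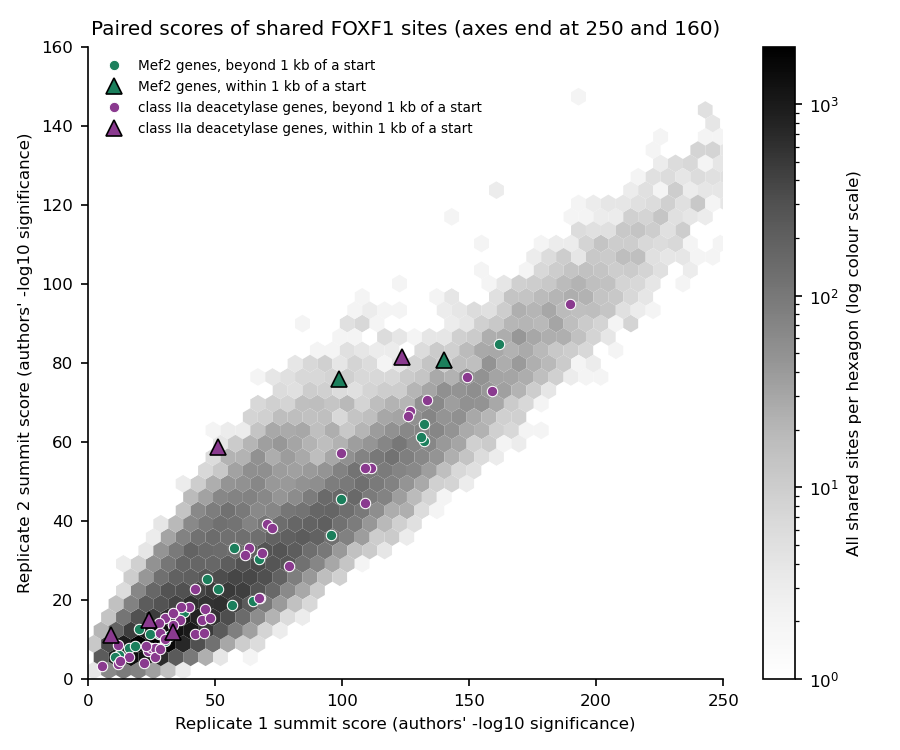
Replicate 2 score (vertical axis) against replicate 1 score (horizontal axis), both the authors' −log10 significance, for the 76 sites of the Mef2 genes (green) and deacetylase genes (purple) over all shared sites (grey hexagons, darker for more sites on a log scale); triangles are sites within 1 kb of a listed start. The Hdac4 site with 51.3 and 58.8, and the start sites of Mef2a and Hdac7, lie towards the upper edge of the cloud; 172 shared sites beyond the axes are not drawn.

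Between the Mef2 genes and the deacetylase genes, median scores were close and the pooled densities inside the genes differed more. The Mef2 sites had median scores of 49.1 and 19.3 in replicates 1 and 2, and the deacetylase sites 42.3 and 16.1. In the top 10% of both lists lay 6 of 26 Mef2 sites and 8 of 50 deacetylase sites. Pooled over the length of the genes, there were 6.20 sites per 100 kb inside the Mef2 genes and 4.01 inside the deacetylase genes, of which Hdac9 is by far the longest. Gene by gene the order was mixed. With pairing at 100 bp, Hdac7 with 17.4 and Hdac5 with 11.6 lay above Mef2c with 8.59, the densest Mef2 gene. Hdac9 with 3.68 and Hdac4 with 1.5 lay below Mef2c and Mef2a. With 3 and 4 genes, no test was made of these differences.

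Genes with a number of sites and a length close to those of these genes came from many families. Among the 500 genes nearest in length, those closest in number of shared sites were Tenm4 with 31 and Pard3b with 33 for Hdac9. For Hdac7 they were Pja2 and Bbox1 with 9 each, and for Mef2a Deptor and Pcdhga5 with 11 each.

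The surrounding pathway was read from lists of genes that act with MEF2 and the class IIa deacetylases. Without the 7 genes themselves, the genes reported here number 53, of which 45 had a shared site, with a median of 2 sites. The share with a site was 84.9%, against the 60.7% of all protein-coding genes given above, whose median length was 17.2 kb. Set beside the 500 genes nearest in length, the 53 genes exceeded a median of 53% of them, against 82.2% for the 7 genes. Mef2b, the remaining MEF2 gene, had none. Of the 7 other zinc-dependent deacetylase genes 6 had a site, but with a median of 1 and at most 3, the number at Hdac8; Hdac2 had 2 and Hdac11 none. The highest shared site of each of these genes reached at most the 87.3 percentile in replicate 1, at Hdac8. Pairing restricted to the top 10000 summits of either list left none of these 7 genes with a shared site, and 16.7% of all protein-coding genes had one. Their lengths ran from 5.40 kb at Hdac10 to 221 kb at Hdac8. They exceeded up to 61.4% of genes of their length, with a median of 35.8%, a range that takes in Mef2d and Hdac4. Hdac2 and Hdac8 also had more sites than Mef2d.

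Of the 15 kinases that can phosphorylate class IIa deacetylases or their relatives, 13 had a site, with a median of 4, and Camk2a and Mark2 had none. For their length the kinases exceeded a median of 58.2% of genes. Sik3, a salt-inducible kinase, had 19 sites and exceeded 88.4% of genes of its length. The protein kinase D gene Prkd1 had 12 and exceeded 65.8%. Sik1 and Camk2d had 9 each, but Camk2d, of 251 kb, exceeded 58.2% of genes of its length and Sik1, of 11.6 kb, 99.2%. The sites of Sik1 all lay outside it. The highest Sik3 site had scores of 210 and 122 in replicates 1 and 2, above every site of the 7 genes. Of the 14-3-3 genes 6 of 7 had a site, with a median of 2; Ywhaz stood apart with 11, and Ywhah had none. These genes exceeded a median of 60.8% of genes of their length.

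Among the corepressor, coactivator and export genes reported here, 4 of 5 had a site, with a median of 2. The acetyltransferase gene Kat2b had 5, Ncor1, Crebbp and the nuclear export gene Xpo1 had 2 each, and Ep300 had none. For their length these 5 genes exceeded a median of 22.4% of genes. Of the genes of ERK5, p38 and calcineurin signalling, which act on MEF2, 7 of 8 had a site, and for their length they exceeded a median of 40.2% of genes. Ppp3ca, the calcineurin catalytic subunit gene, of 268 kb, had 34, but 24 of them inside it, against 32 inside Hdac9. Mapk14 had 7 and Map3k3 had 5. Mapk7, which encodes ERK5, had none. The MADS-box gene Srf and the 3 genes of its cofactors all had sites, as did 60.7% of all protein-coding genes. There were 24 at Mrtfb, 13 of them inside it, 7 at Myocd, 6 at Mrtfa and 2 at Srf. For their length these genes exceeded a median of 73.1% of genes, from 53% at Mrtfa to 97.4% at Mrtfb. The highest Mrtfb site, at 13232244 on chromosome 16, had 283 and 149 in replicates 1 and 2.

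Most of the genes listed here as known targets of MEF2 had many sites for their length. Hdac9 is itself one of these, and of the other 6 genes 5 had a site. Klf4 had 14 and Jun 12, both encoding transcription factors, Klf2, the flow-responsive factor of endothelium, had 8, Nr4a1 6 and the Notch ligand gene Dll4 5, while Mmp10 had none. The 5 genes with sites exceeded 95.4% to 99.8% of genes of their length. Only 1 of the 14 sites of Klf4 and 1 of the 12 of Jun lay inside the gene. Over the 6 genes, 12 of 45 sites lay inside. The match on gene length takes no account of the space around a gene, where most of these sites lay. The list was chosen with earlier results of these data known.

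**Figure D5:**
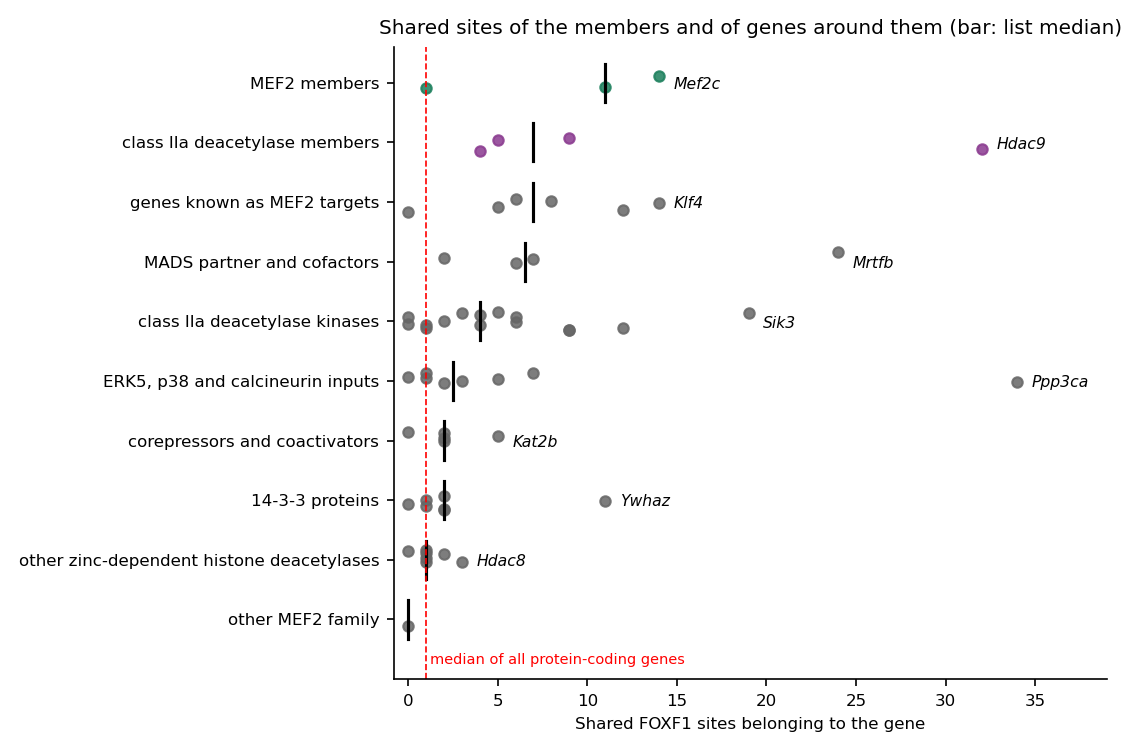
Shared FOXF1 sites per gene (horizontal axis, number) for the Mef2 genes, the class IIa deacetylase genes and the lists around them (rows, 1 point per gene, moved slightly up or down so that equal values can be seen), with a black bar at each list's median, the gene with the most sites named, and a dashed red line at the median of 1 over all protein-coding genes; Hdac9 is left out of the target row. The other zinc-dependent deacetylases stay at 3 sites or fewer, while Hdac9 has 32 and Ppp3ca has 34.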

How the data were processed

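Chromatin precipitated for FOXF1 was sequenced in 2 biological replicates. The authors called peak summits with MACS2 on mm10, per the submitters' processing notes, and each deposited list holds 1-base summits with a −log10 significance score; per the peak names, each replicate was called against the control. The sources used here do not give the aligner, options, duplicate handling or read depth, nor whether the −log10 value is of a p or a q value. Positions are 1-based. The autosomes and both sex chromosomes were kept. Genes came from a RefSeq table of 21887 protein-coding genes on GRCm38.p6, starts and sequences from RefSeq windows of the same build, for all 7 members; no genome sequence was used. Python 3.11.15, pandas 2.3.3 and numpy 2.4.6 paired summits and assigned sites, after a check on simulated summits. The members, lists and motifs were chosen with earlier results of these data known, and the motifs after the sequences were seen. Of the lists, 1 gene is not reported here. Each gene's highest site, its sites at starts, and up to 3 leading genes per list were named. With 1 group of 2 samples, and an input not analysed here as a list of its own, no test was possible, so values are descriptions beside all genes or sites. Replicates are separate pools of lungs.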

Additional observations from a re-analysis of the deposited data

How the results depend on the processing

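All 7 genes kept a shared site under every setting except the 10000 highest summits of each replicate, where Hdac4 and Hdac5 had none. With those summits the 7 genes had 18 sites in place of 76, with a median of 3 per gene in place of 9. There were 3 sites near a start in place of 7, and 19 of the 53 pathway genes had a site in place of 45. Over the genome 7547 shared sites were left in place of 51013, and 16.7% of protein-coding genes had one in place of 60.7%. With pairing at 50 bp the median was 4, and Hdac7 had 4 sites in place of 9, which ended its lead in density. Using 1 replicate alone, the genes had 92 to 167 summits, a median of 9 to 18 and 8 to 11 summits near a start, the upper values from replicate 1. Within 500 bp of a start, a distance added after the data were seen, lay 4 sites, and within 2 kb 10. Counting by nearest gene end alone left 12 sites at Hdac9, because its other 20 lie beyond 100 kb of its ends. With sites inside the gene alone, Mef2a had 6. The highest site of Hdac9 was lost at 50 bp, its summits being 51 bp apart. No paired analysis was possible because the replicates form a single group. Depth is unknown, so a gene or stretch without a shared site may hold binding that was not called.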
